A study of Mus musculus with 16 samples.

Results

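The EGF family ligands and ErbB receptors were followed in RNA from mouse intestinal organoids, which are cultures of gut crypt cells that grow as closed epithelial structures in a gel. The 10 genes were listed by name, and their symbols were matched to the Ensembl identifiers of the count tables, which hold 46078 genes. They were the ligands Areg, Ereg, Hbegf, Tgfa, Btc and Nrg1, the receptors Egfr, Erbb2 and Erbb3, and Lrig1, an inhibitor of the receptors. Of the 10 genes, 8 passed the filter on low counts, which 16510 genes passed in all. Ereg, with 3 counts, and Nrg1, with 2 counts over all 16 libraries, did not pass it.

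Levels are given as CPM, counts divided by library totals, after TMM scaling of those totals, which centres the bulk of genes. The 16 libraries fell into 6 label groups. Untreated organoids labelled Apc mutant (n = 2) and untreated organoids labelled WT (n = 2) were sequenced on culture day 2. Libraries titled APCCM have the genotype label Apc mutant, and libraries titled WTCM have the genotype label WT. Each title has separate libraries of day 4 (n = 3) and of day 2 (n = 3). All 12 of these carry a treatment label that names conditioned medium from Apc-mutant cultures, whereas CM in the titles could stand beside the name of the cells or of the donor culture, and the protocol mentions medium from both kinds of culture. Conditioned medium came from cultures 3 days old. Every library has the strain label C57BL6, and the culture protocol gives the base medium as containing mouse EGF at 50 ng/ml, R-spondin and Noggin, with all 3 added again to conditioned medium. An EGFR ligand was therefore supplied in every group. The protocol describes wild type organoids from Lgr5-EGFP-IRES-CreERT2 mice, transduced with the mCherry construct LeGO-C2, and Apc-/- organoids from the same line with Apcfl/fl, recombined in culture by 4OH-Tamoxifen and transduced with the Venus construct LeGO-V2. Lgr5 drives this Cre in crypt base stem cells. The protocol also lists Villin-CreERT2 Apcfl/fl mice, in which Cre is driven in the whole gut epithelium, without saying which libraries came from them. The labels do not say whether libraries of a group came from separate cultures or animals, so p-values measure the spread between these libraries, which may be technical. Conditioned medium libraries of day 4 and of day 2 also differ in title style and form separate blocks of the series' records. Culture day therefore cannot be told apart from these blocks.

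ErbB receptors are tyrosine kinases at the cell surface that pair when a ligand binds and then activate the RAS-ERK and PI3K-AKT cascades. Amphiregulin, TGF-alpha and EGF bind EGFR, and betacellulin, HB-EGF and epiregulin bind EGFR and ERBB4. Neuregulins bind ERBB4, and some of them bind ERBB3 as well. ERBB2 binds no ligand of its own and serves as a partner, and ERBB3 has little kinase activity and signals through its partner. The ligands are made as membrane proteins and are released by ADAM proteases. In the gut, EGF signalling sustains the division of crypt cells, and LRIG1 lowers ErbB receptor levels and marks crypt stem and progenitor cells.

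Gene counts per library came to 8325979 to 13027701 for untreated organoids and 17986815 to 29152692 for conditioned medium. The untreated libraries also differed in kind: 4.78 to 7.32% of their reads lay outside annotated features, against 14.4 to 19.2% in conditioned medium, so medium and library kind cannot be told apart. Apc itself stood at 249 and 218 CPM in untreated APC libraries against 69.3 and 76.2 CPM in untreated WT libraries, and at 237 to 281 CPM in all 12 conditioned medium libraries. A count over the whole gene does not check a deletion of part of it. Notum, a Wnt target gene, was at 258 and 312 CPM in untreated APC libraries against 0.327 and 0.218 CPM in untreated WT libraries, but stayed at or below 1.03 CPM in all 12 conditioned medium libraries. This goes against the mutant genotype label of the APCCM libraries, which are therefore called by their titles. A difference between APCCM and WTCM may thus not be of the same kind as one between untreated APC and WT. In untreated APC against untreated WT libraries, 32.4% of all tested genes were higher and 30.1% lower. Of 9 epithelial markers, 2 were higher and 6 lower in untreated APC than in untreated WT libraries (sum 3482 to 3785 CPM against 5767 to 6250.4 CPM). Among them Epcam stood at 424 and 425 CPM against 1008 to 1031 CPM, Krt18 at 906 to 936 against 601 to 623 CPM, and Cdh1 at 862 to 873 against 912 to 955 CPM. The 10 fibroblast and stromal markers summed to 271 and 287 CPM in untreated APC libraries, nearly all of it Vim, against 4.19 to 8.57 CPM in the 14 others. Of this list, Col3a1, Dcn, Lum and Thy1 were at 0 in every group. The 4 stromal markers tested had 3 higher and 1 lower in untreated APC than in untreated WT libraries. Col1a1 stood at 0.416 to 0.857 CPM in untreated APC against 0 to 0.109 CPM in untreated WT. Pdgfra stood at 0.485 to 0.857 CPM against 0 to 0.1635 CPM. The other way round, Pdgfrb stood at 0 to 0.0612 CPM in untreated APC against 0.1635 to 0.546 CPM in untreated WT. Acta2 stood at 0.0693 to 0.184 CPM against 0.218 to 0.409 CPM. These levels all lay below 1 CPM and rest on few counts. In bulk libraries, fewer cells of a type and less RNA per cell cannot be told apart. WTCM day 4 replicate 1 stood apart, with 33.3% of its reads aligned to several places against 26.5 to 30.1% in the other conditioned medium libraries.

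Areg, Btc and the weakly counted Ereg and Epgn are the 4 protein-coding genes of a stretch of 375.5 kb on chromosome 5 (GRCm38, GENCODE M21). Ereg lies at chr5:91074622-91093646 and Areg at chr5:91139599-91148432, both on the plus strand, 45.95 kb apart. Btc lies at chr5:91357261-91402994 on the minus strand, 208.8 kb beyond Areg. Over the 16 libraries this cluster gave 47 counts for Epgn, 3 for Ereg, 12081 for Areg and 7060 for Btc, so of neighbouring ligand genes one pair was read and the other nearly silent. The promoters of Areg, Btc and Tgfa, the ligand genes among those searched, are printed from RefSeq (GRCm38.p6), 250 bases before to 50 bases after the start. Capitals mark matches on either strand to the motifs searched. For AP-1, the FOS and JUN dimer that growth factors induce, the letters were TGANTCA. For CRE, the site read by CREB family factors, they were TGACGTCA. The TCF/LEF letters, read by the factors of Wnt signalling, were CTTTGAT. The TEAD letters, read by the partners of YAP, were GGAATG. Those of SP1, a factor of many promoters, were GGGCGG. The TATA letters, which place the start, were TATAAA.
Areg promoter, chr5:91139349-91139648, plus strand: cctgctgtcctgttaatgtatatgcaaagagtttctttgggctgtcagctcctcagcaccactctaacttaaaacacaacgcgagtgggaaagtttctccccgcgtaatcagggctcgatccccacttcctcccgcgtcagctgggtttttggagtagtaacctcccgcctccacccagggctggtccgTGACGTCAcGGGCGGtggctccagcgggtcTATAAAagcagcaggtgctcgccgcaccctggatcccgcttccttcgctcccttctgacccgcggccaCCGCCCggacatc
Btc promoter, chr5:91402945-91403244, minus strand: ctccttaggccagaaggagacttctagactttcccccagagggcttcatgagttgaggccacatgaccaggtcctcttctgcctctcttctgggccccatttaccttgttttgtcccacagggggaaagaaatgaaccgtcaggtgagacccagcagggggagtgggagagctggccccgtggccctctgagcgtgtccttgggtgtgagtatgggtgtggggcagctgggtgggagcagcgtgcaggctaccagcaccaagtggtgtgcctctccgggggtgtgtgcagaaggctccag
Tgfa promoter, chr6:86194972-86195271, plus strand: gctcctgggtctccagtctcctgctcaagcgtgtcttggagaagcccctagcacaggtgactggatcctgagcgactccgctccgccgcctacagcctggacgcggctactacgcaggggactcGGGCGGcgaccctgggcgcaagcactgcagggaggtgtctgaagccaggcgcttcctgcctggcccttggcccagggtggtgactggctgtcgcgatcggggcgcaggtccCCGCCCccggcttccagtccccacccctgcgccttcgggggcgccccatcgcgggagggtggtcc
The Areg window held a CRE match, a palindrome read on both strands, that began 61 bases before the start, a TATA match 31 bases before it, and SP1 matches 52 bases before and 38 bases after it. The Tgfa window held SP1 matches 126 and 15 bases before the start, and the Btc window held no match to these letters. None of the motifs overlapped another in these windows. Of 32544 mouse promoters of the same length, 1.8% held the CRE letters, 13.6% TATA, 35.9% SP1, 14.6% TEAD, 7.79% AP-1 and 3.73% TCF/LEF. Among the other promoters searched, Egfr and Lrig1 held SP1 matches and Erbb2 a TEAD match. RefSeq promoters of 6 of the 10 genes were searched. Those of Ereg, Hbegf, Nrg1 and Erbb3 were left out of the search, so whether they hold these motifs was not tested.

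Between the conditioned medium labels the genes that passed the test were all ligands, and among untreated organoids they were ligands, receptors and Lrig1. Among untreated organoids, 7 of the 8 tested genes differed, 3 higher and 4 lower in APC libraries. So did 62.5% of all tested genes, 32.4% higher and 30.1% lower, and with library totals in place of TMM scaling 6553 genes were higher and 3900 lower, against 5348 and 4971 with it. In the APCCM against WTCM comparison on day 4, 2 of 8 differed, both higher in APCCM, with 15.6% of all genes called (7.83% higher and 7.8% lower). On day 2, 3 of 8 differed, all higher in APCCM, with 16.7% of all genes called (8.54% higher and 8.15% lower). From one day to the other, 5 of 8 genes changed in APCCM libraries, where 23.9% of all genes did (12.2% higher and 11.7% lower on day 4), and 5 of 8 in WTCM libraries, where 24.1% did (12.5% higher and 11.6% lower). In each label 3 of the 5 were higher on day 4 and 2 lower. With library totals alone, the genes called higher and lower were 1744 and 928 between the labels on day 4 (with TMM 1293 and 1287), 1671 and 918 on day 2 (with TMM 1410 and 1345), 1717 and 2173 between days in APCCM (with TMM 2007 and 1939), and 1616 and 2345 between days in WTCM (with TMM 2059 and 1921). Leaving out APCCM day 2 replicate 3 lowered the genes called between the labels on day 2 to 1725, against 2755 with it. The members' median log2 fold change was 0.11 on day 4, 0.08 on day 2 and -0.24 without conditioned medium, beside a median of 0 over all tested genes in each.

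**Figure D1:**
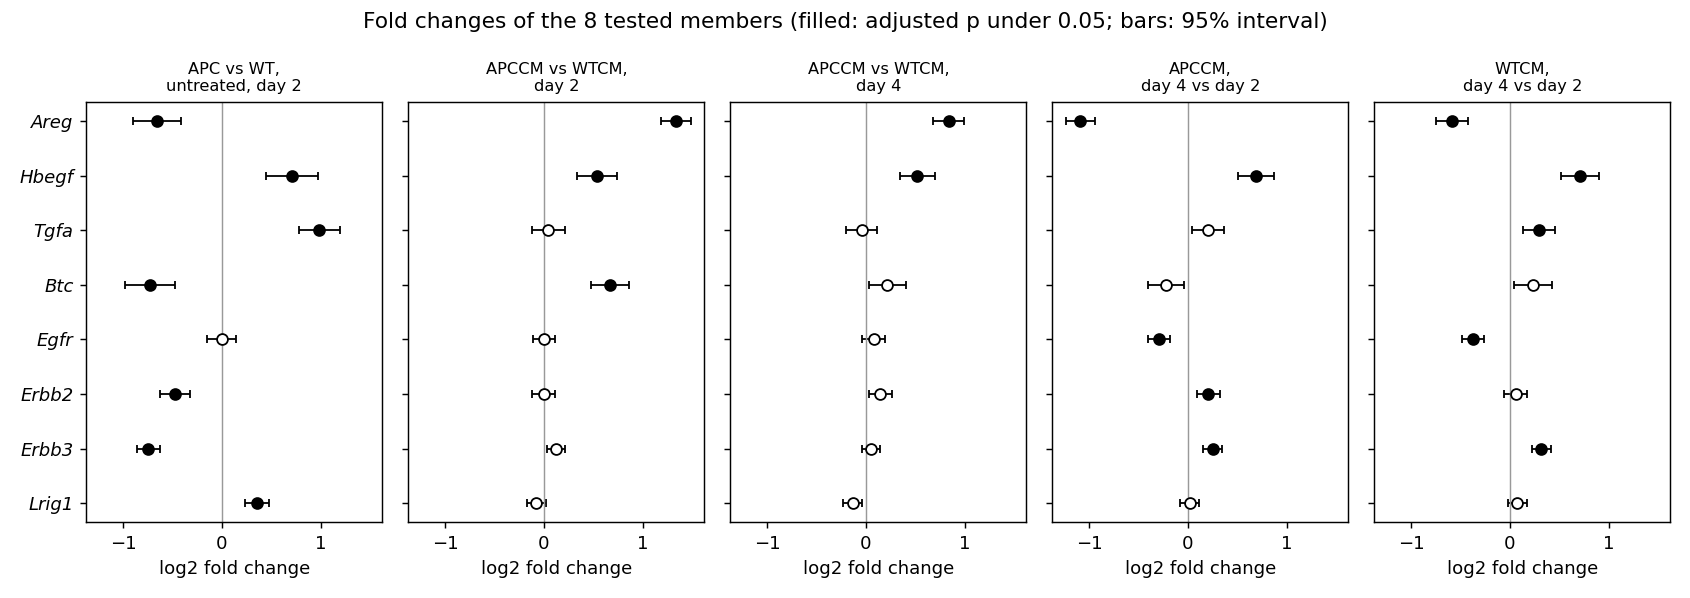
Log2 fold change (x axis) of the 8 tested genes in each of the 5 comparisons of groups, with the 95% interval as a bar and a filled point where the adjusted p was under 0.05. Areg is at -0.66 in untreated organoids and at 1.34 and 0.84 in conditioned medium, while the receptors lie near 0 between the conditioned medium labels.

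Areg, which encodes amphiregulin, showed the largest label difference of the tested members in conditioned medium. On day 4 it stood at 37.1, 44.9 and 38.8 CPM in APCCM libraries, against 23.8, 23.0 and 21.0 CPM in WTCM libraries. On day 2 it stood at 81.7, 89.3 and 85.1 CPM in APCCM libraries, against 37.5, 32.4 and 31.3 CPM in WTCM libraries. Every APCCM library was above every WTCM library of its day, and the APCCM libraries of day 2 were the highest of all 16. By the quasi-likelihood test of edgeR, with p-values adjusted by Benjamini-Hochberg over all tested genes here and throughout, Areg was 1.79-fold higher on day 4 (log2 fold change 0.84 ± 0.08, adjusted p = 3.4e-08; ± is the standard error), and without WTCM day 4 replicate 1 the log2 fold change was 0.87 with adjusted p = 2.7e-07. The day 2 difference was 2.53-fold (log2 fold change 1.34 ± 0.07, adjusted p = 5.4e-12). The label difference of day 4 minus that of day 2 was -0.50 ± 0.11 on the log2 scale (adjusted p = 0.0095). Areg was the only one of the 8 tested genes called here, beside 2.13% of all genes (0.884% higher and 1.24% lower), and without WTCM day 4 replicate 1 the value was -0.46 with adjusted p = 0.044.

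Untreated organoids had the opposite order for Areg. The level was 18.1 and 16.8 CPM in untreated APC libraries, against 26.7 and 28.3 CPM in untreated WT libraries. Both APC libraries were the lowest of the 16, and the WT pair lay between the WTCM libraries of day 4 and those of day 2. Areg was 1.58-fold lower in untreated APC libraries (log2 fold change -0.66 ± 0.12, adjusted p = 2.5e-05). Between days, Areg fell on day 4 in both labels, with 40.2 ± 4.09 CPM on day 4 against 85.4 ± 3.77 CPM on day 2 in APCCM (SD, n = 3 each; log2 fold change -1.09 ± 0.07, adjusted p = 1.6e-10). In WTCM it averaged 22.6 ± 1.45 CPM on day 4 against 33.7 ± 3.31 CPM on day 2 (SD, n = 3 each; log2 fold change -0.59 ± 0.08, adjusted p = 8.6e-06).

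Hbegf encodes HB-EGF, a ligand that also binds heparan sulfate. It was higher in untreated APC than in untreated WT libraries, and higher in APCCM than in WTCM libraries on both days. Its level was 18.6 and 17.9 CPM in untreated APC libraries, against 11.7 and 10.6 CPM in untreated WT libraries. On day 4 it was 23.4, 24.1 and 21.9 CPM in APCCM libraries, against 18.0, 15.4 and 15.1 CPM in WTCM libraries. Day 2 gave 13.5, 14.2 and 15.2 CPM in APCCM libraries, against 10.6, 8.94 and 9.96 CPM in WTCM libraries. No library overlapped in any of these comparisons. The differences were similar in size: 0.71 ± 0.13 untreated (adjusted p = 3.2e-05), 0.52 ± 0.08 on day 4 (adjusted p = 9.1e-05) and 0.54 ± 0.10 on day 2 (adjusted p = 0.00027), on the log2 scale. Without WTCM day 4 replicate 1 the day 4 value was 0.60 (adjusted p = 4.7e-05). The 95% interval of the change in label difference between days was -0.28 to 0.25, and that between untreated and conditioned medium libraries was -0.16 to 0.50. Unlike Areg, Hbegf rose on day 4, by 0.69 ± 0.09 in APCCM (adjusted p = 2.3e-06) and by 0.71 ± 0.09 in WTCM (adjusted p = 5.6e-06). Hbegf lies on the minus strand of chromosome 18, at positions 36504927 to 36515805.

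Btc encodes betacellulin. On day 4 it stood at 26.2, 24.1 and 24.9 CPM in APCCM libraries, against 22.9, 22.3 and 19.7 CPM in WTCM libraries. Its day 2 levels were 25.3, 29.6 and 32.8 CPM in APCCM libraries, against 18.2, 18.6 and 18.3 CPM in WTCM libraries. The APCCM libraries were above the WTCM libraries on both days, but the gap was narrow on day 4. It passed the threshold on day 2 (1.59-fold; log2 fold change 0.67 ± 0.09, adjusted p = 1.1e-05) and not on day 4 (log2 fold change 0.22 ± 0.09, adjusted p = 0.11). The change between these differences was -0.45 ± 0.13 (adjusted p = 0.071), so a difference between days was not shown for Btc. It passed when APCCM day 2 replicate 1 was left out (-0.55, adjusted p = 0.02) or WTCM day 4 replicate 3 was (-0.52, adjusted p = 0.045). Like Areg, Btc was lower in untreated APC libraries, at 20.9 and 16.6 CPM against 29.5 and 32.5 CPM in untreated WT libraries, without overlap (1.65-fold lower; log2 fold change -0.73 ± 0.12, adjusted p = 1.5e-05). Between days the differences of Btc had opposite signs and neither passed the threshold, with -0.22 in APCCM (adjusted p = 0.076) and 0.23 in WTCM (adjusted p = 0.075). They passed at -0.32 in APCCM without its day 2 replicate 1 (adjusted p = 0.016) and at 0.30 in WTCM without its day 4 replicate 3 (adjusted p = 0.045).

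Tgfa encodes TGF-alpha. In untreated organoids its level was 70.5 and 69.4 CPM in APC libraries, against 30.9 and 40.4 CPM in WT libraries. The APC pair was the highest of the 16 libraries, and the WT pair differed more from each other than the APC pair did. Tgfa was 1.98-fold higher in untreated APC libraries (log2 fold change 0.99 ± 0.10, adjusted p = 3.8e-09). Here and in the other untreated comparisons, the spread was estimated over all groups. The standard error and p-value therefore rest also on the conditioned medium libraries. In conditioned medium the label groups overlapped on both days. Tgfa was at 34.6, 36.3 and 35.2 CPM in APCCM against 38.1, 33.1 and 38.0 CPM in WTCM on day 4 (adjusted p = 0.79). Tgfa on day 2 was at 30.9, 29.2 and 31.7 CPM in APCCM against 28.4, 28.2 and 32.3 CPM in WTCM (adjusted p = 0.75). The 95% intervals of these log2 fold changes, -0.20 to 0.12 and -0.12 to 0.21, do not reach the untreated value. In WTCM libraries Tgfa rose on day 4 (log2 fold change 0.30 ± 0.08, adjusted p = 0.007), and in APCCM libraries it was 0.21 with adjusted p = 0.057. The APCCM value passed with DESeq2 size factors (0.049), with no filter on low counts (0.032) and with only the compared groups (0.017). Tgfa lies at chr6:86195223-86275719 on the plus strand.

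**Figure D2:**
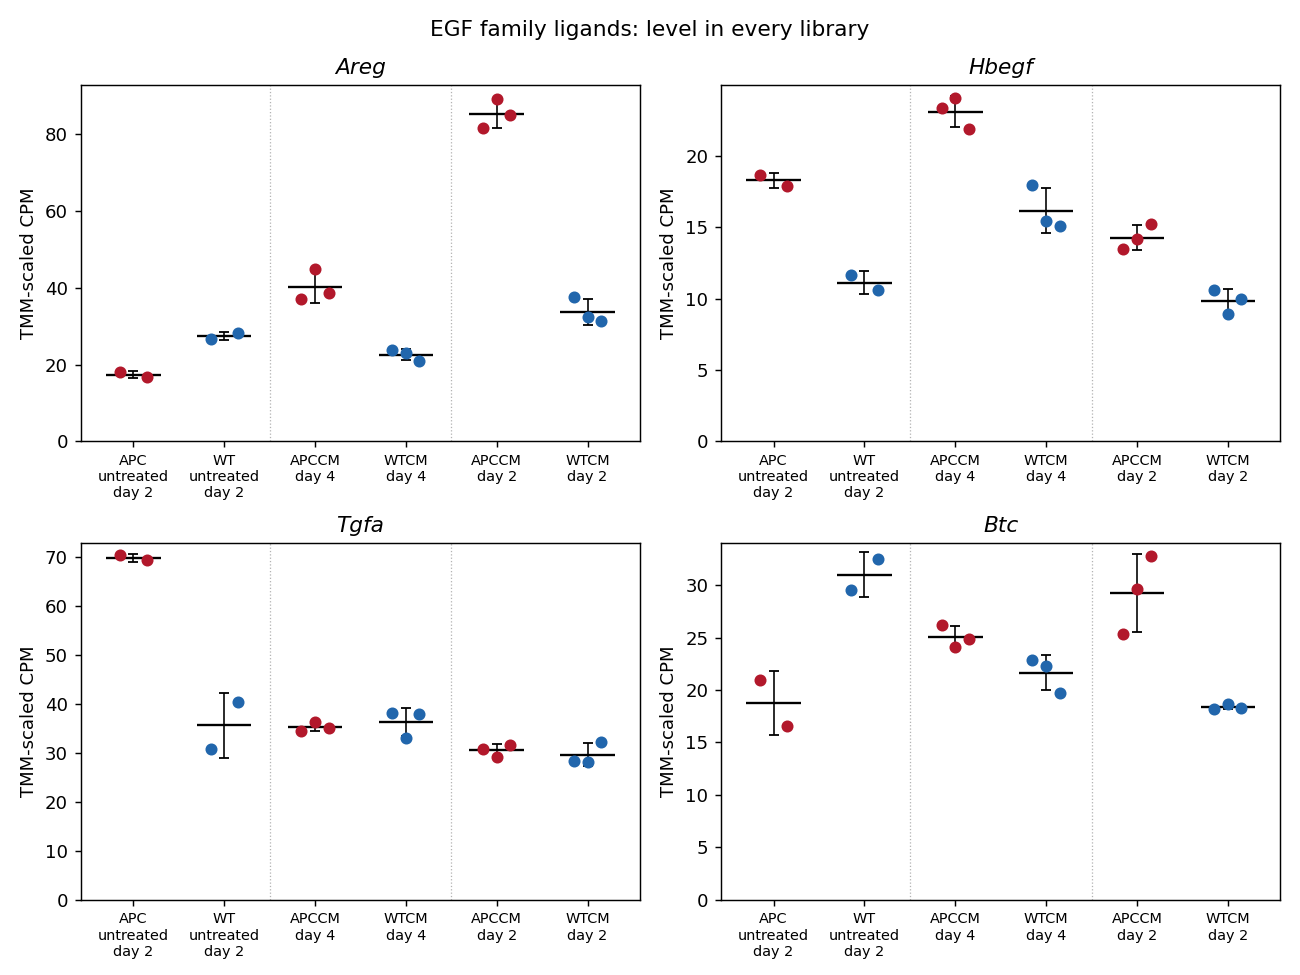
Level of the 4 measured ligand genes (y axis, TMM-scaled CPM) in every library by group, with a point per library and lines for the mean ± SD (n = 2 or 3). Areg peaks in the APCCM libraries of day 2 at 81.7 to 89.3 CPM, and Tgfa in untreated APC libraries at 69.4 and 70.5 CPM.

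Ereg and Nrg1 were at or near 0 in every group. Ereg, the epiregulin gene, had 1 count each in replicate 2 of APCCM on day 4, of WTCM on day 4 and of APCCM on day 2. Nrg1, at chr8:31814551-32884029 on the minus strand, encodes a ligand of ERBB3 and ERBB4 and had 1 count each in untreated APC replicate 5 and WTCM day 4 replicate 1. A group with no counts allows a level of up to 0.0975 CPM in untreated APC, 0.140 CPM in untreated WT, 0.0472 CPM in APCCM day 4, 0.0442 CPM in WTCM day 4, 0.0531 CPM in APCCM day 2 and 0.0489 CPM in WTCM day 2 (3 counts over the group, counting error only). No difference between groups was detectable for either gene at this depth.

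Egfr, the receptor of all 4 measured ligands, passed no label comparison. Its levels were 54.2 and 53.9 CPM in untreated APC libraries, against 50.3 and 58.5 CPM in untreated WT libraries. On day 4 they were 64.9, 66.5 and 64.2 CPM in APCCM, against 63.1, 61.6 and 60.7 CPM in WTCM. On day 2 they were 82.8, 77.2 and 79.8 CPM in APCCM, against 83.3, 78.5 and 78.0 CPM in WTCM. The groups overlapped on day 2 in both media, and on day 4 every APCCM library was above every WTCM library by a small margin. The 95% intervals of the label difference were -0.15 to 0.15 untreated, -0.03 to 0.19 on day 4 and -0.11 to 0.11 on day 2 on the log2 scale, with adjusted p of 1, 0.37 and 1 in the same order. With library totals in place of TMM scaling, which moved the median of all genes to 0.17 in the untreated comparison, Egfr was at 0.17 there with adjusted p = 0.049. Egfr fell on day 4 in both labels (log2 fold change -0.29 ± 0.05, adjusted p = 0.00024 in APCCM, and log2 fold change -0.37 ± 0.05, adjusted p = 1.8e-05 in WTCM). Egfr lies at chr11:16752203-16918158 on the plus strand.

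Erbb2 and Erbb3, the partner receptors, were lower in untreated APC libraries. Erbb3 stood at 149 and 156 CPM in APC libraries, against 255 and 255 CPM in WT libraries (1.67-fold lower; log2 fold change -0.74 ± 0.06, adjusted p = 2.8e-11). Erbb2 stood at 94.8 and 103 CPM in APC libraries, against 147 and 127 CPM in WT libraries (1.39-fold lower; log2 fold change -0.47 ± 0.07, adjusted p = 4.5e-06). For neither gene did the untreated groups overlap, and both genes were lower in all 4 untreated libraries than in any library in conditioned medium.

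Between the conditioned medium labels neither partner receptor passed the threshold. Erbb3 was at 673, 687 and 679.9 CPM in APCCM against 670.0, 624 and 669 CPM in WTCM on day 4 (95% interval of the log2 fold change -0.04 to 0.15, adjusted p = 0.46). The day 2 levels of Erbb3 were 569, 585 and 560.1 CPM in APCCM against 517, 523 and 534 CPM in WTCM, without overlap (log2 fold change 0.12 ± 0.04, adjusted p = 0.059). That day 2 value passed the threshold with DESeq2 size factors (adjusted p = 0.044), with DESeq2 (0.0048), with only the compared groups in the fit (0.03) and with library totals alone (0.024). Erbb2 was at 232, 241 and 233 CPM in APCCM against 217, 201 and 221 CPM in WTCM on day 4, without overlap (log2 fold change 0.15 ± 0.06, adjusted p = 0.085), and passed there with DESeq2 (adjusted p = 0.033), with only the compared groups (0.034) and with library totals alone (0.024). On day 2 the labels overlapped for Erbb2, at 202, 213 and 196 CPM in APCCM against 212, 202 and 198 CPM in WTCM (95% interval -0.12 to 0.11, adjusted p = 0.99). Between days, Erbb3 rose on day 4 in APCCM (log2 fold change 0.25 ± 0.04, adjusted p = 0.00018) and in WTCM (log2 fold change 0.32 ± 0.04, adjusted p = 1.2e-05). Erbb2 rose on day 4 in APCCM (log2 fold change 0.21 ± 0.06, adjusted p = 0.0084), a call lost without APCCM day 2 replicate 3 (0.18, adjusted p = 0.055), and was at 0.06 in WTCM (adjusted p = 0.49). Erbb3 lies at chr10:128567523-128589652 on the minus strand and Erbb2 at chr11:98412470-98437716 on the plus strand, where Erbb2 shares 9 exon bases with Mien1 on the other strand.

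Lrig1, the receptor inhibitor, was 1.28-fold higher in untreated APC libraries, at 344 and 354 CPM against 278 and 268 CPM in untreated WT libraries (log2 fold change 0.35 ± 0.06, adjusted p = 9.5e-06). In conditioned medium its order was the other way round. On day 4 it was at 336, 361 and 345 CPM in APCCM, against 395, 367 and 381 CPM in WTCM. Day 2 levels were 339, 352 and 337 CPM in APCCM, against 359, 362 and 365 CPM in WTCM. All APCCM libraries were below all WTCM libraries of their day, but neither difference passed the threshold (log2 fold change -0.13 ± 0.05, adjusted p = 0.056 on day 4, and log2 fold change -0.08 ± 0.05, adjusted p = 0.29 on day 2). The day 4 value passed with DESeq2 (adjusted p = 0.026), without APCCM day 4 replicate 2 (0.048) and without WTCM day 4 replicate 2 (0.045). The 95% intervals of the change between days were -0.08 to 0.12 in APCCM and -0.02 to 0.17 in WTCM. Lrig1 lies at chr6:94604529-94700158 on the minus strand and shares 144 exon bases with Slc25a26 on the other strand, where the counting gave that gene at most 231 counts in a library.

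**Figure D3:**
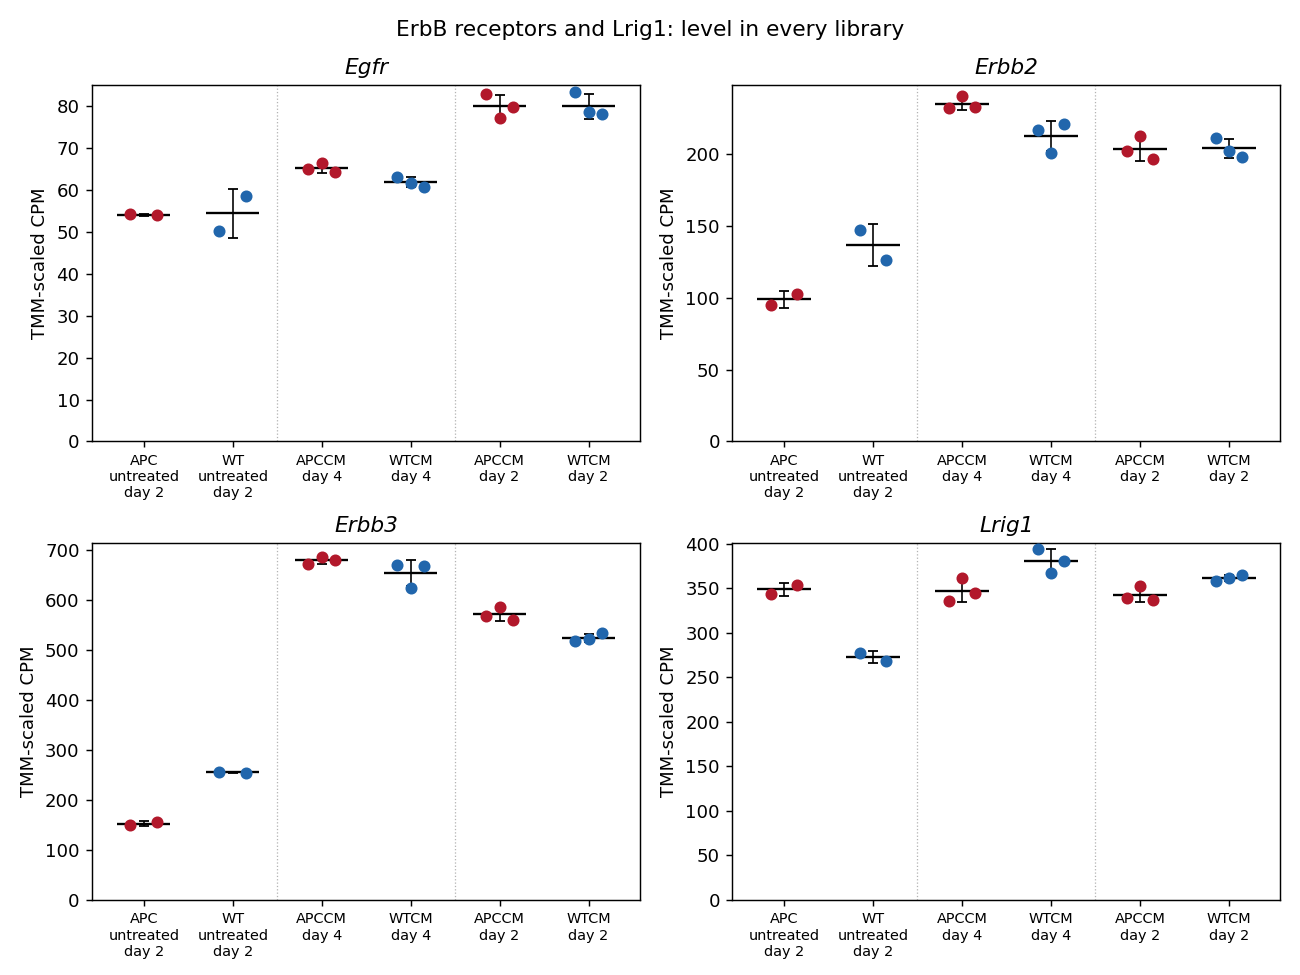
Level of the 3 receptor genes and Lrig1 (y axis, TMM-scaled CPM) in every library by group, with a point per library and lines for the mean ± SD (n = 2 or 3). Erbb3 spans 149 to 255 CPM where organoids were untreated and 517 to 687 CPM in conditioned medium, and the label groups of Egfr overlap on day 2.

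Groups whose libraries did not overlap were common for the 8 tested genes and for genes in general. They numbered 7 of 8 in the untreated comparison (75.7% of all genes), 7 of 8 between labels on day 4 (34.9%) and 5 of 8 on day 2 (34.5%). Between days, 6 of 8 did not overlap in APCCM (39.7% of all genes) and 7 of 8 in WTCM (41.3%).

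The label difference itself was set against medium on day 2 as the untreated log2 difference minus that in conditioned medium. It differed for 6 of the 8 tested genes, and for 53.1% of all genes (26.4% higher and 26.7% lower), with medium and library kind not separable. Areg had -1.99 ± 0.14 (adjusted p = 5.8e-12), Btc -1.40 ± 0.15 (adjusted p = 3.2e-08) and Tgfa 0.94 ± 0.13 (adjusted p = 8.7e-07). For Areg and Btc the differences had opposite signs, with untreated APC libraries below untreated WT libraries and APCCM libraries above WTCM libraries. Notum went against the mutant label of the APCCM libraries. The untreated and conditioned medium label differences may therefore not be of the same kind. Erbb3 had -0.87 ± 0.07 (adjusted p = 2.3e-10), Erbb2 -0.47 ± 0.09 (adjusted p = 0.00013) and Lrig1 0.43 ± 0.07 (adjusted p = 2.6e-05). Hbegf and Egfr did not pass (adjusted p = 0.4 and 1).

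Set per length of exon, Erbb3 was the most abundant of the family in conditioned medium and Hbegf had the lowest mean of the tested genes in every group, with its library range overlapping that of Btc in untreated APC. In CPM per kb, Erbb3 averaged 113 in APCCM and 109 in WTCM on day 4, and 95.01 and 87.2 on day 2. Lrig1 and Erbb2 came next on day 4, with 62.2 and 45.2 CPM per kb in APCCM and 68.2 and 40.8 in WTCM. Areg was the most abundant ligand in every group. Its 70.3 CPM per kb in APCCM libraries of day 2 stood above Lrig1 at 61.4, whereas in WTCM libraries of day 2 Areg had 27.8 against 64.8 for Lrig1. In untreated APC libraries Lrig1 led with 62.5 CPM per kb, followed by Erbb3 at 25.3, Erbb2 at 19.0, Areg at 14.3 and Tgfa at 10.8. In untreated WT libraries Lrig1 had 48.9, Erbb3 42.4, Erbb2 26.3, Areg 22.6 and Btc 6.86 CPM per kb. Egfr, at 4.77 to 7.06 CPM per kb over the 6 groups, changed place with Tgfa and Btc from group to group. In WTCM of day 2 it averaged 7.06 CPM per kb, above Tgfa at 4.57 and Btc at 4.07, and in untreated APC it averaged 4.77, below Tgfa at 10.8.

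**Figure D4:**
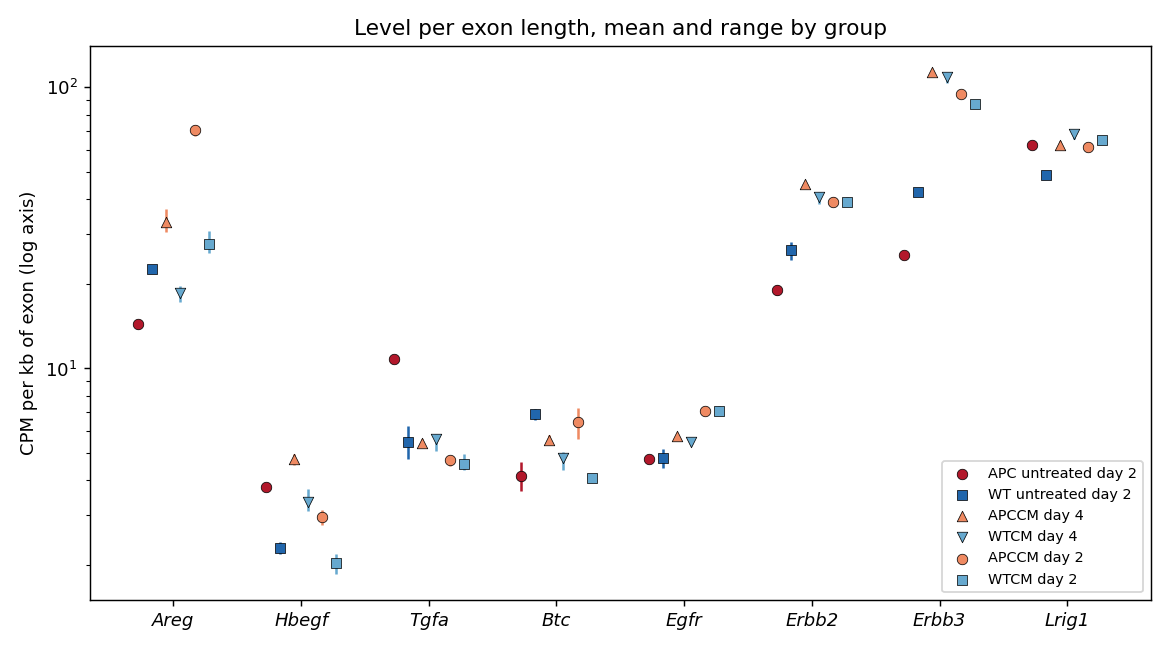
Level per exon length (y axis, CPM per kb on a log axis) of the 8 tested genes by group, with the mean as a point and the range over libraries as a bar. Areg spans 14.3 to 70.3 CPM per kb over the group means, while Lrig1 spans 48.9 to 68.2.

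The order of the groups differed from gene to gene. By mean level, Areg ran from APCCM day 2, APCCM day 4 and WTCM day 2 down to untreated WT, WTCM day 4 and untreated APC, and the neighbouring ranges overlapped only for APCCM day 4 with WTCM day 2. Hbegf ran from APCCM day 4, untreated APC, WTCM day 4 and APCCM day 2 to untreated WT and WTCM day 2, and overlapped between untreated APC and WTCM day 4, between WTCM day 4 and APCCM day 2, and between the last pair. For Btc, untreated WT overlapped APCCM day 2, APCCM day 2 overlapped APCCM day 4, and untreated APC overlapped WTCM day 4 and WTCM day 2. In Tgfa only untreated APC stood clear of the other groups.

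Over the 12 conditioned medium libraries, the genes most like each member by Pearson correlation of log2 CPM, among 10473 genes with a mean of at least 5 CPM, were as follows, as a description of libraries that share labels and days. Areg was nearest to Fam185a (0.985), Capg (0.983) and Stat2 (0.979). Hbegf was nearest to Tacc2 (0.9814), Egr1 (0.9755), an immediate early gene that ERK activity induces, and BC025446 (0.9749). Btc was nearest to Sppl2a (0.957), Ubxn7 (0.956) and Rnf141 (0.956), and Tgfa to Exoc6b (0.958), Chkb (0.934) and Rbm33 (0.932). Egfr was nearest to Dynll1 (0.990), Ccnt1 (0.983) and Gemin5 (0.978), and Erbb3 to Itm2c (0.985), Cobl (0.980) and Bcl2l1 (0.979). Erbb2 was nearest to Adap1 (0.955), Fam83h (0.949) and Lgals4 (0.944), and Lrig1 to Rnf44 (0.922), Mrpl43 (0.921) and Tmub1 (0.913).

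Of the other 6 family genes listed, Egf, Epgn and Nrg4 were tested. Egf, the gene of the factor added to the medium, averaged 1.58 CPM in untreated APC, 1.76 CPM in untreated WT, and 1.60 to 2.05 CPM in the 4 conditioned medium groups, and passed no comparison. Nrg4, a ligand of ERBB4, was lower in the APC or APCCM libraries in each label comparison. On day 4 it stood at 4.45, 2.89 and 2.62 CPM in APCCM, against 7.38, 4.57 and 7.39 CPM in WTCM (log2 fold change -0.96 ± 0.19, adjusted p = 0.00093). Nrg4 on day 2 was at 2.92, 2.84 and 2.99 CPM in APCCM, against 4.88, 5.57 and 5.97 CPM in WTCM (log2 fold change -0.90 ± 0.20, adjusted p = 0.0032). It had no counts in untreated APC libraries, against 4.41 and 4.26 CPM in untreated WT libraries, which is at least 44.5-fold lower when 3 counts over the APC pair are allowed. Nrg3 had no counts, Nrg2 at most 2 in a group and Erbb4, the receptor of Nrg4, 1 count in all.

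Genes of ligand release, receptor control and the cascade are set against the share of all tested genes called in either direction, which was 62.5% in untreated organoids, 15.6% between labels on day 4 and 16.7% on day 2. Of 6 genes for shedding and trafficking of the ligands, 3 were higher and 1 lower in untreated APC, 1 was lower in APCCM on day 4 and none passed on day 2. Between days, 1 of the 6 was higher and 1 lower on day 4 in APCCM, and 2 were higher and 1 lower in WTCM, beside 23.9% and 24.1% of all genes called. Adam17, the main protease that frees amphiregulin and TGF-alpha, fell on day 4 in APCCM (44.6 CPM against 56.3 CPM on day 2; log2 fold change -0.34 ± 0.05, adjusted p = 3.3e-05) and in WTCM (41.0 CPM against 52.6 CPM on day 2; log2 fold change -0.36 ± 0.05, adjusted p = 1.8e-05). Rhbdf2 rose on day 4 in APCCM (log2 fold change 0.32, adjusted p = 0.0014) and in WTCM (0.33, adjusted p = 0.0011), and Adam9 rose in WTCM (0.15, adjusted p = 0.027). Of 10 other genes listed as negative regulators of the receptors, 5 were higher and 4 lower in untreated APC, none passed on day 4, and 2 were higher and 1 lower in APCCM on day 2. Lrig3, a relative of Lrig1, was at 2.36 and 2.63 CPM in untreated APC libraries against 38.5 and 42.3 CPM in untreated WT libraries (log2 fold change -4.01 ± 0.13, adjusted p = 1.2e-18), opposite in sign to Lrig1. Lrig2, another relative, had the same sign as Lrig1, with 31.1 CPM in untreated APC against 20.4 CPM in untreated WT (log2 fold change 0.61 ± 0.10, adjusted p = 9.1e-06). Of 26 adaptor, RAS-ERK and PI3K core genes, 10 were higher and 6 lower in untreated APC, 1 was lower in APCCM on day 4, and 3 were higher and 2 lower on day 2. The untreated and day 2 counts of this list, and the untreated count of the shedding genes, lie near the shares of all genes. Pik3r1, the main regulatory subunit of PI3K, was lower in APCCM on both days (log2 fold change -0.40 ± 0.05, adjusted p = 1.4e-06 on day 4, and log2 fold change -0.32 ± 0.05, adjusted p = 3.4e-05 on day 2).

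Of the genes listed as ERK feedback and target genes, more were called higher than lower in the APC or APCCM libraries. The list was chosen with earlier results of these data known, so its direction is a description. Whether ERK activity differed was not tested. Of the 19 listed, 11 were higher and 4 lower in untreated APC, 8 were higher and 1 lower in APCCM on day 4, and 11 were higher and 1 lower on day 2. Over all genes, 32.4% were higher and 30.1% lower in untreated APC, 7.83% higher and 7.8% lower in APCCM on day 4, and 8.54% higher and 8.15% lower on day 2. The median log2 fold change of the list was 0.31, 0.27 and 0.33 in these comparisons, against 0 for all genes. Dusp6, a phosphatase of ERK, was higher in each, with 37.4 CPM in APCCM against 25.9 CPM in WTCM on day 4 (log2 fold change 0.53 ± 0.09, adjusted p = 0.0002) and 35.7 CPM in APCCM against 19.7 CPM in WTCM on day 2 (log2 fold change 0.85 ± 0.10, adjusted p = 5.4e-07). Epha2, an ephrin receptor, was also higher in each, with 72.7 CPM in APCCM against 48.5 CPM in WTCM on day 4 (log2 fold change 0.59 ± 0.08, adjusted p = 5.4e-06) and 70.2 CPM in APCCM against 48.4 CPM in WTCM on day 2 (log2 fold change 0.53 ± 0.08, adjusted p = 2.2e-05). Fos, which encodes a subunit of AP-1, was higher in APCCM on day 4 (22.7, 22.4 and 19.6 CPM against 11.3, 11.7 and 9.98 CPM in WTCM; log2 fold change 0.97 ± 0.11, adjusted p = 3.6e-07) and on day 2 (log2 fold change 0.65 ± 0.10, adjusted p = 6.6e-05). In untreated APC libraries Fos was lower, at 2.08 and 2.14 CPM against 16.1 and 13.4 CPM in untreated WT libraries (log2 fold change -2.81 ± 0.20, adjusted p = 9.8e-12), while Phlda1 (1.85), Fosl1 (2.06) and Spred3 (2.27) were higher on the log2 scale. Mean levels of Dusp5 (5.83 against 16.1 CPM), Spry4 (0.971 against 3.15 CPM) and Etv4 (38.6 against 51.3 CPM) were also lower in untreated APC than in untreated WT libraries. Egr1 and Ier3 were also higher in APCCM on day 4, by 0.56 (adjusted p = 0.00033) and 0.54 (adjusted p = 0.005), and Egr1 and Spred3 on day 2, by 0.53 (adjusted p = 0.0016) and 0.55 (adjusted p = 0.042).

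**Figure D5:**
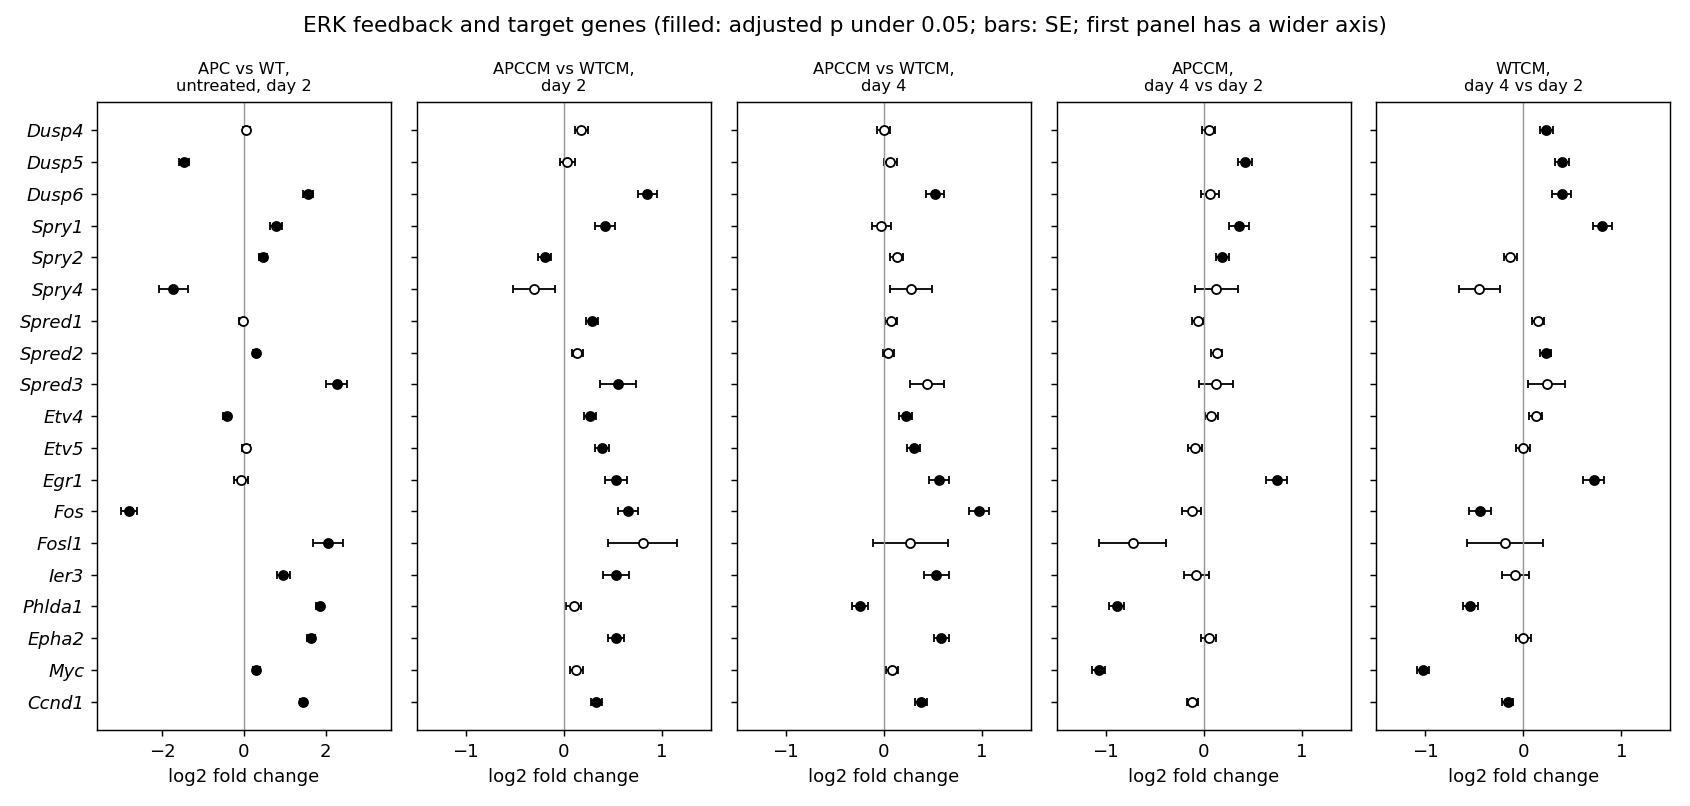
Log2 fold change (x axis, wider in the first panel) of the 19 ERK feedback and target genes in each comparison of groups, with the standard error as a bar and a filled point where the adjusted p was under 0.05. Dusp6, Epha2 and Fos lie right of 0 in both conditioned medium label comparisons, and Fos lies at -2.81 in untreated organoids.

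Between days the listed ERK feedback and target genes split, with 4 of 19 higher and 2 lower on day 4 in APCCM (12.2% and 11.7% of all genes) and 6 higher and 4 lower in WTCM (12.5% and 11.6% of all genes). Egr1 rose on day 4 in APCCM (44.1 CPM against 26.3 CPM on day 2; log2 fold change 0.75 ± 0.10, adjusted p = 9.7e-06) and in WTCM (30.0 CPM against 18.1 CPM on day 2; log2 fold change 0.72 ± 0.11, adjusted p = 3.9e-05), as Hbegf did. Myc fell on day 4 in APCCM (89.3 CPM against 187 CPM on day 2; log2 fold change -1.07 ± 0.06, adjusted p = 4.3e-11) and in WTCM (84.3 CPM against 171 CPM on day 2; log2 fold change -1.02 ± 0.06, adjusted p = 6.4e-11), as Areg did. Phlda1 fell in both as well (-0.89 and -0.54), and Spry1, an inhibitor of the cascade, rose in both, by 0.36 in APCCM (adjusted p = 0.0089) and by 0.80 in WTCM (adjusted p = 2.9e-06).

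Markers of epithelial cell types are set against the share of all tested genes called in either direction. It was 62.5% in untreated organoids, 15.6% between labels on day 4 and 16.7% on day 2. Between days it was 23.9% in APCCM and 24.1% in WTCM. Lists of 3 to 7 markers are small for a comparison with these shares. On day 4, when Areg and Hbegf were higher in APCCM, all 5 crypt base stem markers were lower there (sum 1899 to 2085 CPM in APCCM against 3664 to 3800.4 CPM in WTCM), 4 of 5 enteroendocrine markers were higher (1021 to 1112 against 702 to 833 CPM), and 2 of 6 Paneth markers were higher and 1 lower (4987 to 5315 against 5307 to 6165 CPM). On the same day 3 of 6 goblet markers were higher (6752 to 6803 against 5849.7 to 7329.7 CPM), 2 of 3 tuft markers were higher (39.5 to 46.7 against 29.0 to 34.6 CPM), and 2 of 7 enterocyte markers were higher and 3 lower (8887 to 9436 against 9731 to 10704.8 CPM). On day 2, when Btc was higher as well, 4 of 5 stem markers were lower in APCCM (2662 to 2848 against 3489 to 3723 CPM in WTCM), and 4 of 6 Paneth (5551 to 6017 against 4149 to 4305 CPM), all 6 goblet (5489 to 6374 against 4118 to 4639 CPM) and 4 of 5 enteroendocrine markers (772 to 883 against 468 to 489.8 CPM) were higher. On day 2, 1 of 3 tuft markers was higher (28.0 to 36.0 against 19.3 to 25.2 CPM), and 2 of 7 enterocyte markers were higher and 2 lower (7028 to 7389 against 7085 to 7628 CPM). Among untreated organoids, 5 of 6 Paneth markers were lower and 1 higher in APC (777 to 825 against 6579 to 6831 CPM in WT), and 6 of 7 enterocyte markers were lower and 1 higher (308 to 314 against 8002 to 8083 CPM). All 6 goblet (143 to 158 against 3072 to 3289 CPM) and all 5 enteroendocrine markers (4.09 to 4.28 against 423 to 427 CPM) were lower. The stem markers had 4 higher and 1 lower in untreated APC, though their sum was 1833 to 1919 against 2633 to 2834 CPM in WT, and all 3 tuft markers were lower (3.74 to 5.57 against 20.8 to 23.6 CPM). Of these lists, Gip, Cck and the epithelial keratin gene Krt20 were at 0 in untreated APC libraries. Between days, 3 of 5 enteroendocrine markers were higher on day 4 in APCCM and 3 of 5 in WTCM. In APCCM, 4 of 5 stem markers were lower on day 4, 3 of 7 enterocyte and 1 of 3 tuft markers were higher, 2 Paneth markers were higher and 3 lower, and 2 goblet markers were higher and 2 lower. In WTCM, 1 stem marker was lower on day 4, 6 of 7 enterocyte, 4 of 6 Paneth and all 3 tuft markers were higher, and 4 goblet markers were higher and 1 lower. The part of these cell types in the ligand and receptor values was not tested.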

How the data were processed

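The authors deposited raw read counts per gene, 1 table per library. The tools named in the submitters' processing notes were HTSeq 0.6.1p1, HISAT2 2.1.0 and Trimmomatic 0.36, and the build was GRCm38. A strand setting for counting is not given in the sources used here. Genes that overlap on opposite strands therefore could not be separated, and reads with several alignments are in no gene. Per the labels' protocols, libraries were made from RNA depleted of ribosomal RNA.

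Summary lines, which hold no gene, were left out of library sizes. Reads with several alignments made up 36.5 to 38.9% of all reads in untreated libraries and 26.5 to 33.3% in conditioned medium. Ambiguous reads made up 0.460 to 0.599%. All 6 groups were fitted at once with edgeR 4.0.16 in R 4.3.3 (quasi-likelihood test, TMM factors 0.898 to 1.26, filterByExpr with a minimum count of 10, 10 residual degrees of freedom, common biological coefficient of variation 5.96%), with Benjamini-Hochberg adjustment over 16510 genes and a threshold of 0.05. The standard error was taken as the log2 fold change divided by the square root of F. The scripts were tested on simulated counts. Alternatives were DESeq2 size factors, no filter, DESeq2 1.42.0, only the compared groups, a replicate block and each library left out. Library totals without TMM, and a crossed replicate block for the untreated groups, were chosen after seeing the data.

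Levels per length used the union of exons in GENCODE M21, which gave a symbol for 45143 of 46078 identifiers. Members and gene lists were chosen with earlier results of these data known. Of the lists, a gene was named if it passed the test, its groups did not overlap and its log2 fold change was at least 1 untreated or 0.5 in conditioned medium, at most 6 in a comparison. Adam17, Pik3r1, Egf and the other family genes were named beside that rule to give the level of a defining member, with values known. Dusp5, Spry4, Etv4, Rhbdf2, Adam9 and Lrig2 were named beside it to show the other direction within a list, also with values known. The series' own design text places untreated organoids on day 4 too and conditioned medium on day 2 only, and the library labels were followed here.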

Additional observations from a re-analysis of the deposited data

Results flagged for a closer look

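In conditioned medium, the label difference of Areg on day 4 minus that on day 2 was -0.50 on the log2 scale (adjusted p = 0.0095 by edgeR's test of the interaction), with APCCM above WTCM in every library on both days. Culture day cannot be told apart from the blocks of records that hold these libraries.

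On day 2, the label difference in untreated organoids minus that in conditioned medium passed the same kind of test for 6 of the 8 tested genes. It was -1.99 for Areg, -1.40 for Btc, -0.87 for Erbb3 and -0.47 for Erbb2, with APC libraries below WT libraries among untreated organoids for all 4 genes. It was 0.94 for Tgfa and 0.43 for Lrig1, with untreated APC libraries above untreated WT libraries for both. These rest on 2 untreated libraries a group, and medium and library kind cannot be told apart. The untreated and conditioned medium label differences may also not be of the same kind, since Notum went against the mutant label of APCCM libraries.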

How the results depend on the processing

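Of 744 values of the 8 tested genes under other settings, 718 kept the side of the threshold, and kept the direction wherever they passed it. Of the rest, 24 passed it only under the other setting, 1 lost it (Erbb2 between days in APCCM, without APCCM day 2 replicate 3) and 1 turned. Counted among the 718 are 30 values that passed the test in neither fit and had the other sign, none above 0.14 in size. The value that turned was Egfr between untreated groups, at 0.17 with library totals in place of TMM scaling against -0.00 with it. That setting uses the totals unadjusted, and it moved the median over all genes to 0.17 in the untreated comparison and to 0.15 for label by medium.

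Between labels on day 4, 4 genes of the family were called with DESeq2 and 4 with only the compared groups, against 2. For label by day, 2 were called with no filter and 2 with only the compared groups, against 1, where the second gene was Btc (adjusted p = 0.013 and 0.025). For label by day, 568 genes in all were called with only the compared groups and 637 with the replicate block, against 351. The causes were not tested. In label by medium, the share of calls that were higher was 60.0% with library totals alone, against 49.7%.

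With each library left out in turn, the genes called ranged from 9232 to 9690 between untreated groups (10319 with all libraries), from 1901 to 2025 between labels on day 4 (2580), from 1725 to 2484 on day 2 (2755, the lowest without APCCM day 2 replicate 3), from 3110 to 3429 between days in APCCM (3946), from 2832 to 3386 in WTCM (3980), from 237 to 325 for label by day (351) and from 8055 to 8555 for label by medium (8764). Family genes called numbered 7 between untreated groups and 6 for label by medium throughout, 2 to 3 on day 4, 3 on day 2, 4 to 6 between days in APCCM, 5 to 6 in WTCM and 1 to 2 for label by day. Where a library left out of a pair leaves 1, that library is assumed to vary like the other groups.

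The replicate numbers did not pair the libraries of conditioned medium. Correlations of same-numbered libraries ran from -0.0492 to 0.0529, and a library was best matched by its own number in 8 of 24 cases. With the replicate block, 9874 genes were called between untreated groups, 1835 between labels on day 4, 1895 on day 2, 4722 and 4736 between days in APCCM and WTCM, and 8129 for label by medium. Family genes called with the block were 7, 2, 3, 6, 5 and 6 in the same order, and 1 for label by day. In the untreated groups the numbers correlated at -0.149, and the crossed pairing called 10537 genes and the same number of family genes, 7.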
